A study of Mus musculus with 16 samples.

Results

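The genes described here are 10 transcription factors of the pancreatic beta cell, Mafa, Pdx1, Nkx6-1, Nkx2-2, Neurod1, Pax6, Isl1, Foxa2, Rfx6 and Mnx1, followed through islets exposed to a cytokine and a bacterial fatty acid. They were chosen by name: each of the 10 symbols matched 1 Ensembl identifier among the 52636 genes of the count table, and all 10 were among the 18587 genes with enough counts to test. Islets came from 12-week-old male wild-type mice, with the strain given as C57BL/6JRj in the sample labels and as C57BL/6NRj in the study's methods. Control islets were left unexposed, IL-1β islets received 50 pg/ml of the recombinant mouse cytokine, butyrate islets received 0.2 mM sodium butyrate, and the combination islets received both at these doses. All were kept in medium with human serum for 10 days, with fresh medium on day 5. Each of the 4 conditions was sequenced in 4 libraries from independent experiments, and each library was made from 500 islets pooled from several mice, so the replicate is the experiment and not the mouse. The question of the design was how IL-1β altered islet gene expression and what butyrate did with and without it.

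These proteins build and hold beta cell identity. Pdx1 and Foxa2 act early in the pancreas, Neurod1, Nkx2-2, Pax6, Isl1 and Rfx6 act in endocrine cells of several kinds, and Nkx6-1, Mnx1 and Mafa are, in the adult mouse islet, mostly or only in beta cells, as is most Pdx1. Mafa, Pdx1 and Neurod1 bind the insulin promoter together, and the loss of Mafa, Nkx6-1 or Pdx1 is a known sign of beta cells that lose their mature state. IL-1β is an inflammatory cytokine to which beta cells carry many receptors. Butyrate, which gut bacteria release when they ferment fibre, inhibits histone deacetylases and binds fatty acid receptors.

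IL-1β split the 10 genes into falling, rising and unmoved members. Mafa, Pdx1 and Nkx6-1, which are 3 of the 4 members placed mostly in beta cells, fell, while Neurod1, Isl1 and Rfx6, which are 3 of the 6 members that other endocrine cells also use, rose. Mafa moved most and fell by 44.1% from 396 ± 30.2 to 222 ± 36.6 CPM (counts scaled to the size of the library, mean ± SD, n = 4). Butyrate did not return Mafa towards control. Under both agents it stood at 130 ± 33.9 CPM, and butyrate alone left it at 387 ± 51.3 CPM. Isl1 was the member that butyrate lowered both with and without the cytokine.

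Sequencing depth was similar in all conditions, with 18635943 to 25955943 counts per library. CPM values were scaled by the TMM method, which gives each library a scaling factor and does not remove differences in cell makeup. Changes were tested with edgeR's quasi-likelihood test across all 18587 genes, and a gene was called where its Benjamini-Hochberg adjusted p (FDR) was under 0.01. The libraries had the character of islets: Ins2, the main insulin gene, took 13.4 to 15.1% of the counts in control libraries and Gcg, the glucagon gene of alpha cells, took 1.91 to 2.25%. Acinar and fibroblast markers were low in every condition, with summed levels of at most 29.4 CPM over the 4 tested of 8 acinar genes and 22.7 CPM over the 8 mesenchymal genes. Since the islets were sequenced whole, fewer beta cells and less RNA of a gene per beta cell cannot be told apart in any value below.

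Between genes, levels were compared per kilobase of exon. Nkx6-1 was the most abundant member in each condition, at 183 ± 14.8 CPM per kb in control islets, and over all libraries it ranked at the 99.4th percentile of the genes tested. Mafa followed in control islets at 145 ± 11.04 CPM per kb and Pdx1 at 97.3 ± 3.76 CPM per kb. Mnx1, a homeobox gene needed to keep beta cells from taking on delta cell features, was the least abundant at 12.5 ± 0.763 CPM per kb, which still put it at percentile 83.1 over all libraries. The order shifted with exposure. Mafa ranked 2 of the 10 in control and butyrate islets, 3 in IL-1β islets and 5 in combination islets. Neurod1 ranked 4 in control islets and 2 in both conditions with IL-1β, where its spread overlapped that of the next member. In IL-1β islets it stood at 93.0 ± 6.31 beside 81.0 ± 13.4 CPM per kb for Mafa. In combination islets it stood at 82.6 ± 4.97 beside 80.7 ± 4.71 CPM per kb for Pdx1. Per kilobase, Isl1 and Pax6 were neighbours in control islets, at 37.7 ± 2.77 and 35.0 ± 0.826 CPM per kb, and did not differ beyond their spread. That nearness depends on the length used, which joins all annotated exons and is 3959 bases for Isl1 and 11694 for Pax6. Before division by length they stood at 149 ± 10.9 and 410 ± 9.66 CPM. The smallest count of any member in any library was 545. In 36 of 40 pairs of member and condition the spread between libraries was larger than the counting error of the mean count, and in 4 (Rfx6 in control and butyrate, Pax6 and Mnx1 in IL-1β islets) it was not.

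**Figure D1:**
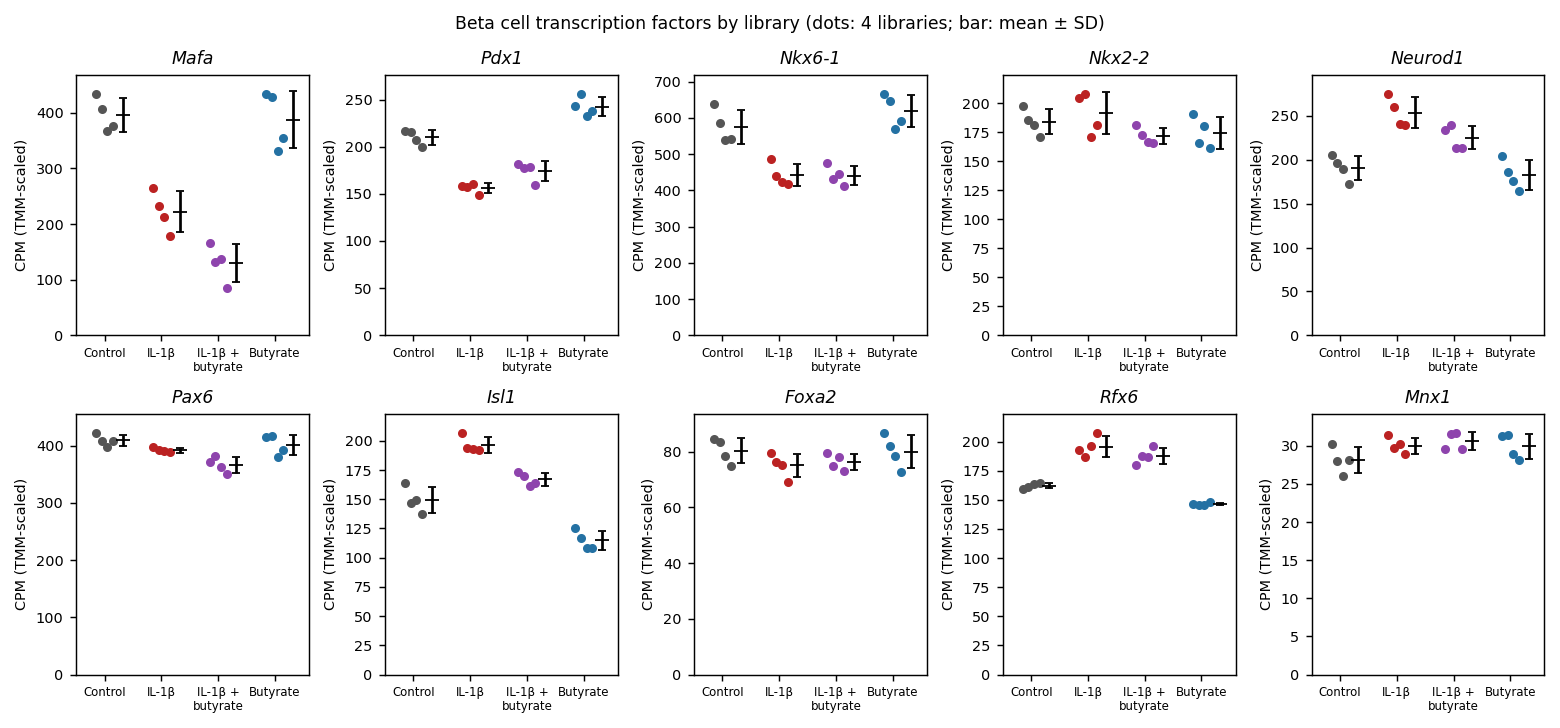
TMM-scaled CPM of the 10 genes in each of the 16 libraries (vertical axes, starting at 0), by condition; dots are the 4 libraries in replicate order and the bar is the mean ± SD. Mafa falls to between 178 and 265 CPM with IL-1β and to between 84.3 and 166 CPM with both agents, whereas Isl1, Neurod1 and Rfx6 are higher with IL-1β than in any control library.

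For the members with E-box or CCAAT sequences before their start sites, the upstream sequence is shown for 3 that changed, because Isl1 and Neurod1 rose with IL-1β where Pdx1 fell. The windows are the 250 bases before the RefSeq start site (GRCm38.p6), which were found for 9 of the 10 members; printed are only those bases that also precede the first base of the gene in the GENCODE annotation. Capitals mark the E-box CANNTG and CCAAT on either strand (ATTGG on the other). The lines give Isl1 (chr13:116309690-116309938, minus strand), Neurod1 (chr2:79456752-79456886, minus strand) and Pdx1 (chr5:147269847-147269958, plus strand), 5′ to 3′.
Isl1: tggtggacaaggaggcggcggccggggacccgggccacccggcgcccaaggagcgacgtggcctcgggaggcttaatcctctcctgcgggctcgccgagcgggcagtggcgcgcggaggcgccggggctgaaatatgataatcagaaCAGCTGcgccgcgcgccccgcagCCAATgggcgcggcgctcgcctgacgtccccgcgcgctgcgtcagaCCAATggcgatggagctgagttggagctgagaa
Neurod1: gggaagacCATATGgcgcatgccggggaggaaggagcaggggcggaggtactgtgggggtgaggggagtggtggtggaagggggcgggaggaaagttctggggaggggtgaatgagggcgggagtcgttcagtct
Pdx1: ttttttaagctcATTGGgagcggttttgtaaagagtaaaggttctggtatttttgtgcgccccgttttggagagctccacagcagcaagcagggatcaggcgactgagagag
Over the whole 250 bases Isl1 had 1 CANNTG and 2 CCAAT, Neurod1 had 1 CANNTG and 0 CCAAT, and Pdx1 had 3 CANNTG and 2 CCAAT. Searched on both strands, CANNTG occurred in 66.2% and CCAAT in 33.9% of 32851 mouse windows of that length, so neither sets these genes apart. The CpG dinucleotides in the windows of the members ran from 2 in Rfx6 to 33 in Isl1, against a median of 6 over all windows. Nkx6-1 had 30, Neurod1 had 22 and Pdx1 had 10.

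The first group to describe is the members that mark beta cells. Mafa encodes a leucine zipper factor that binds the insulin promoter and appears late, as beta cells mature. The gene has 1 exon block on the minus strand of chromosome 15 (GRCm38, chr15:75745490-75748228). Its levels in the 4 control libraries were 434, 407, 368 and 377 CPM, and in the 4 IL-1β libraries 265, 232, 213 and 178 CPM. In the combination libraries they were 166, 132, 137 and 84.3 CPM, and in the butyrate libraries 434, 428, 332 and 356 CPM. Every IL-1β library was below every control library, every combination library was below every IL-1β library, and the butyrate and control libraries overlapped. The order of the conditions was therefore control and butyrate, which did not differ beyond their spread, then IL-1β, then the combination.

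Against control, Mafa fell by 0.84 on the log2 scale with IL-1β (SE 0.18, FDR 0.0034), and its log2 change with the combination was -1.61 (SE 0.18, FDR 1.1e-05). The added fall from IL-1β to the combination was 0.77 (log2 change -0.77, SE 0.18, FDR 0.0062). Butyrate alone gave a log2 change of -0.03 (SE 0.18, FDR 0.92). With IL-1β, Mafa was also the member that varied most between libraries, with a coefficient of variation of 26.1% in combination islets and 16.5% in IL-1β islets. In the fit used here, which has no term for the replicate number, its IL-1β call was past the threshold by a narrow margin. Without Control replicate 1, IL-1β replicate 3 or IL-1β replicate 4 the FDR was 0.0106, 0.0117 or 0.0128. Over 23 alternative fits it ran from 1.9e-05 to 0.0128, with the log2 change between -0.92 and -0.73. Part of the spread of Mafa went with the replicate number, as replicate 1 was its highest library in all 4 conditions. With the replicate number as a block in the fit, the SE was 0.12 and the FDR 2.3e-04. The labels do not say that a number marks 1 shared experiment, so the block fit is an alternative only. The added fall with butyrate missed the threshold without IL-1β replicate 1, 2 or 3 and without combination replicate 2 or 3, with FDRs from 0.0107 to 0.018, and also with no filter on low counts (FDR 0.014) and with only the 2 conditions fitted (FDR 0.05). Over 23 alternatives its FDR ran from 9.5e-05 to 0.05.

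Pdx1 encodes the homeobox factor that opens pancreas development and later drives insulin transcription in beta cells. It has 2 exon blocks on the plus strand of chromosome 5 (GRCm38, chr5:147269959-147275848). Its 4 control libraries stood at 217, 216, 207 and 199.8 CPM, and its IL-1β libraries at 158, 158, 161 and 149 CPM. The combination libraries stood at 182, 177, 178 and 159 CPM, and the butyrate libraries at 243, 256, 232 and 238 CPM. All butyrate libraries were above all control libraries, which were above all combination libraries, and combination and IL-1β libraries overlapped through 1 library. Pdx1 fell by 0.42 with IL-1β on the log2 scale (SE 0.05, FDR 8.3e-08) and rose by 0.21 with butyrate alone (SE 0.05, FDR 0.0013). The difference of 0.16 between combination and IL-1β islets (SE 0.05, FDR 0.0149) was not past the threshold, though 5 of 23 alternatives put it there, 1 of them leaving out combination replicate 4 (FDR 0.0048), with FDRs from 7.7e-04 to 0.0723. The rise with butyrate alone held in 22 of 23 alternatives and missed the threshold without butyrate replicate 2 (FDR 0.0101, range over alternatives 2.9e-05 to 0.0101).

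Nkx6-1 encodes a homeobox repressor that keeps alpha cell genes silent and supports insulin secretion. It lies on the minus strand of chromosome 5 (GRCm38, chr5:101658139-101664996) with 3 exon blocks. The control libraries held 637, 586, 538 and 541 CPM, and the IL-1β libraries 485, 440.5, 424 and 416 CPM. The combination libraries held 475, 431, 444 and 412 CPM, and the butyrate libraries 666, 646, 569.8 and 593 CPM. The values fell into 2 tiers, control with butyrate above and IL-1β with the combination below, with overlap inside each tier and none between them. Nkx6-1 fell by 0.38 with IL-1β on the log2 scale (SE 0.06, FDR 2.8e-05), and combination and IL-1β islets gave a log2 difference of -0.0019 (SE 0.06, FDR 0.99). Butyrate alone gave a log2 change of 0.10 (SE 0.06, FDR 0.22).

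Mnx1 (GRCm38, chr5:29473034-29478470, minus strand) was the beta cell member that was called in no comparison. Its levels ran from 26.04 to 30.2 CPM in control, 28.9 to 31.4 CPM in IL-1β, 29.6 to 31.7 CPM in combination and 28.2 to 31.4 CPM in butyrate libraries, so all conditions overlapped. The largest of its changes against control was a log2 change of 0.12 in combination islets (SE 0.06, FDR 0.0836), which 1 of 23 alternatives, scaling by library size alone, called (FDR 0.0031, range over alternatives 0.0031 to 0.272).

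Among the members shared with other endocrine cells, Isl1 followed a pattern of its own. It encodes a LIM homeobox factor that binds DNA with the adaptor Ldb1 and is used in beta, alpha and delta cells. The gene has 7 exon blocks on the minus strand of chromosome 13 (GRCm38, chr13:116298281-116309689). Control libraries held 164, 147, 149 and 137 CPM, and IL-1β libraries 207, 194, 193 and 193 CPM. Combination libraries held 174, 169.6, 161 and 164 CPM, and butyrate libraries 125, 117, 109 and 108 CPM. IL-1β libraries were above the other 3 conditions and butyrate libraries below them, while combination and control libraries overlapped. On the log2 scale Isl1 rose by 0.40 with IL-1β (SE 0.05, FDR 1.3e-06), and the log2 change with butyrate was -0.38 without IL-1β (SE 0.05, FDR 4.1e-06) and -0.23 with it (SE 0.05, FDR 0.0012). These 3 calls held in all 23 alternatives. Combination islets differed from control by 0.16 (SE 0.05, FDR 0.015), which 7 of 23 alternatives called, 1 of them without Control replicate 1 (FDR 0.0023, range over alternatives 3.0e-04 to 0.0812).

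Neurod1 encodes a basic helix-loop-helix factor that binds E-box sequences, including that of the insulin promoter. It has 2 exon blocks on the minus strand of chromosome 2 (GRCm38, chr2:79452521-79456751). Its control libraries held 206, 196, 189 and 173 CPM, and its IL-1β libraries 275, 260.5, 240.3 and 239 CPM. Its combination libraries held 235, 239, 214 and 214 CPM, and its butyrate libraries 205, 187, 175 and 165 CPM. Libraries with IL-1β, with or without butyrate, were all above the control libraries, and butyrate libraries overlapped with control. Neurod1 rose by 0.41 with IL-1β (SE 0.06, FDR 2.3e-05) and by 0.24 with the combination (SE 0.06, FDR 0.0039) on the log2 scale, and the log2 difference between combination and IL-1β islets was -0.17 (SE 0.06, FDR 0.0461), which 2 of 23 alternatives called (range over alternatives 3.6e-04 to 0.131). The combination call missed the threshold without Control replicate 3 or 4 and without combination replicate 1 or 2, with FDRs from 0.0119 to 0.0208 and a range over 23 alternatives of 1.4e-06 to 0.0208. Of the exon bases of Neurod1, 201 (7.37%) are shared with Cerkl on the same strand, and reads there could not be given to either gene with certainty. Cerkl had 13297 counts over all libraries against 75248 for Neurod1. A further overlap of 154 bases (5.64%) is with Gm26755 on the opposite strand, which had 168 counts. The library kit does not mark strand, so the same limit holds there.

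Rfx6 encodes a winged helix factor of all endocrine cells that acts above insulin secretion genes. It has 20 exon blocks on the plus strand of chromosome 10 (GRCm38, chr10:51677756-51730432). Control libraries held 159, 161, 164 and 165 CPM, and IL-1β libraries 192, 187, 197 and 207 CPM. Combination libraries held 179.8, 187, 186 and 196 CPM, and butyrate libraries 147, 145, 146 and 148 CPM. In butyrate and control islets Rfx6 was the steadiest member, with coefficients of variation of 0.771% and 1.46%, below the 1.79% and 1.66% that counting alone gives, and only the combination and IL-1β libraries overlapped. It rose by 0.27 with IL-1β (SE 0.04, FDR 1.1e-05) and by 0.21 with the combination (SE 0.04, FDR 1.9e-04) on the log2 scale. The lower level with butyrate alone (log2 change -0.15, SE 0.04, FDR 0.0086) was close to the threshold and missed it in 13 of 23 alternatives, with FDRs from 0.0016 to 0.0892. Of these, 10 left out 1 library each, namely any Control or butyrate replicate, IL-1β replicate 3 or combination replicate 3, with FDRs from 0.0102 to 0.0269.

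Pax6, Nkx2-2 and Foxa2 moved little. Pax6, a paired box factor of all endocrine cells (GRCm38, chr2:105668900-105697364, plus strand), held 422, 409, 399 and 409 CPM in control libraries and 398, 392, 390.2 and 389 CPM in IL-1β libraries. In combination libraries it held 372, 382, 362 and 350.3 CPM, and in butyrate libraries 415, 417, 381 and 392 CPM. The combination libraries were below all control and all IL-1β libraries, by a small amount. The log2 change was -0.06 with IL-1β (SE 0.04, FDR 0.32), and Pax6 fell by 0.16 with the combination (SE 0.04, FDR 0.0034). That call was missed without Control replicate 1 and without combination replicate 3 or 4 (FDR 0.0127 to 0.014), and with scaling by library size alone (FDR 0.0892); over 23 alternatives the FDR ran from 9.2e-05 to 0.0892.

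Nkx2-2, a homeobox factor that represses alpha cell genes in beta cells (GRCm38, chr2:147177546-147194243, minus strand), ran from 171 to 197 CPM in control, 171 to 208 CPM in IL-1β, 166 to 181 CPM in combination and 161 to 191 CPM in butyrate libraries. It was called in no comparison. Its nearest approach was the log2 difference of -0.15 between combination and IL-1β islets (SE 0.06, FDR 0.0593), which was past the threshold without IL-1β replicate 3 (FDR 0.0077, range over alternatives 0.0042 to 0.192). Foxa2, a forkhead factor that opens chromatin in endodermal tissues (GRCm38, chr2:148042877-148046969, minus strand), ran from 74.9 to 84.5 CPM in control, 69.2 to 79.5 CPM in IL-1β, 72.9 to 79.4 CPM in combination and 72.7 to 86.7 CPM in butyrate libraries, and was called in none either. All 4 conditions overlapped for both genes. Of the exon bases of Nkx2-2, 278 (9.67%) are shared with Nkx2-2os on the opposite strand. Reads there could not be given to either gene with certainty, as the library kit does not mark strand. Nkx2-2os had 7 counts over all libraries against 63574 for Nkx2-2.

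Set against all genes, the IL-1β comparison moved more of the members than of the rest. It called 6 of the 10, 3 higher and 3 lower, where 17.8% of the genes tested were called (11.2% higher and 6.59% lower). The groups did not overlap for 7 of 10 members, the 6 called and Pax6, against 24.7% of the genes tested. The members ranked at percentiles 83.1 to 99.4 by level, where small changes are easier to call. The share among genes of like level was not computed, and the members were chosen with earlier results of these data known. Because the members moved both ways, their median log2 change was -0.0032, beside -0.03 for all genes. The 4 beta cell members had a median of -0.40 and the 6 shared members a median of 0.16. Butyrate alone called 3 of 10, Pdx1 higher and Isl1 and Rfx6 lower, where 19.9% of the genes tested were called (8.53% higher and 11.4% lower), so its share of the members was closer to the background. Without butyrate replicate 2 it called 1.

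Adding butyrate to IL-1β called 2 of 10 against IL-1β alone, Mafa and Isl1, both lower, where 19.5% of the genes tested were called (8.41% higher and 11.1% lower). Leaving out IL-1β replicate 1 or 2 or combination replicate 2 or 3 left 1 call, Isl1. A replicate block in the fit gave 5 calls, adding Pdx1 higher and Neurod1 and Nkx2-2 lower, where 4983 of all genes were called. The combination against control called 6 of 10 (Mafa, Pdx1, Nkx6-1 and Pax6 lower, Neurod1 and Rfx6 higher), where 30.6% of the genes tested were called (15.8% higher and 14.8% lower). Within butyrate-treated islets, IL-1β called 6 of 10, where 14.8% of the genes tested were called (9.92% higher and 4.86% lower): Mafa (log2 change -1.57), Pdx1 (-0.48) and Nkx6-1 (-0.49) lower, and Isl1 (0.54), Rfx6 (0.36) and Neurod1 (0.30) higher. These were the 6 members that IL-1β called without butyrate, in the same directions, and here none of the calls was lost in any of 23 alternatives. IL-1β against control and the combination against butyrate share no library. Both came from 1 fit, however, and libraries with the same replicate number deviated alike, so neither is an independent repeat of the other. The other comparisons share control, IL-1β, combination or butyrate libraries with one another. The values of all comparisons are therefore only set side by side.

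**Figure D2:**
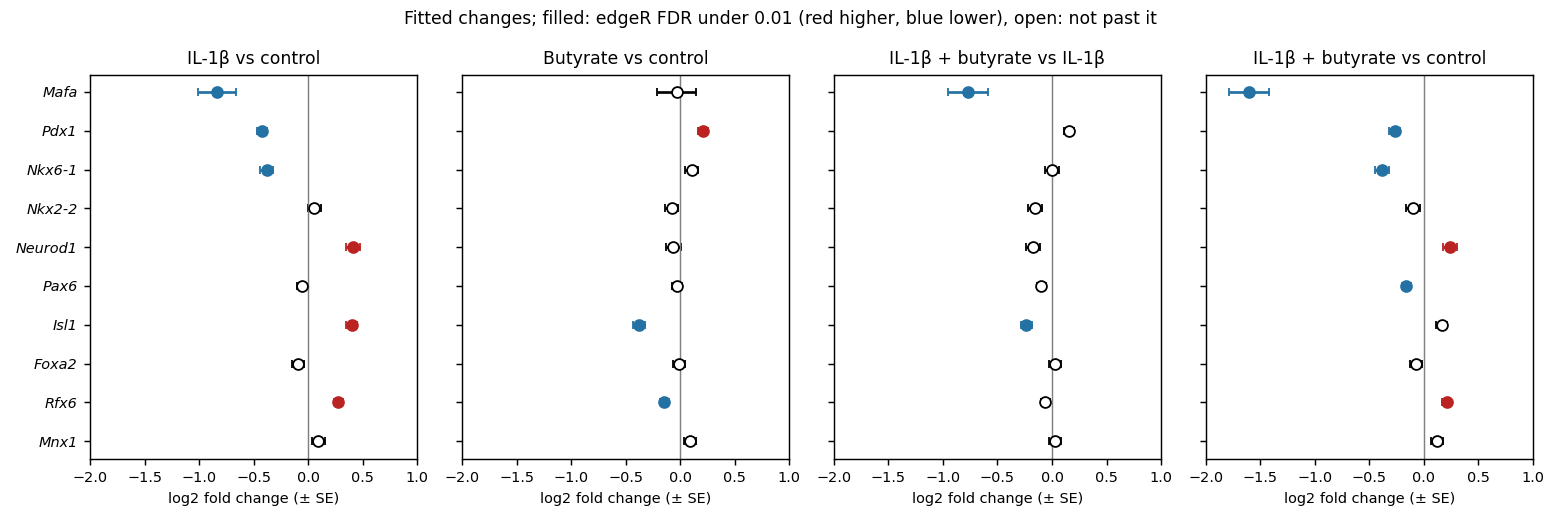
Fitted log2 fold changes (horizontal axes, ± SE) of the 10 genes in 4 comparisons; filled points are past an FDR of 0.01, red higher and blue lower, and open points are not. Mafa lies furthest from 0 with IL-1β (-0.84) and with the combination (-1.61) and at -0.03 with butyrate alone, and Isl1 changes side between IL-1β (0.40) and butyrate (-0.38).

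Whether butyrate acted differently with and without IL-1β was tested as the difference of its effects. edgeR called 0 of the 10 members, where 0.0968% of the genes tested were called, and DESeq2 called 0 as well. At an unadjusted p under 0.05, 1 member remained in either tool, Mafa (p 0.0127 in edgeR and 0.00257 in DESeq2). The difference for Mafa was -0.74 on the log2 scale, with a 95% interval of -1.29 to -0.19 and an FDR of 0.46 (range over 22 alternatives 0.0667 to 0.685). Its lower level with butyrate in IL-1β islets was therefore not shown, after adjustment over all genes, to differ from its level change with butyrate alone. For Isl1 the difference was 0.14, with an interval of -0.02 to 0.31, and for Pdx1 it was -0.05, with an interval of -0.20 to 0.09. These intervals hold for 1 gene at a time.

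Ratios between members inside a library do not depend on how libraries were scaled. Isl1, which rose with IL-1β, was set under the 3 members that fell; these pairs were chosen after their values had been seen and are a description. The ratio of Mafa to Isl1, each per kilobase, was 3.56 to 4.01 in control, 1.33 to 1.86 in IL-1β, 0.743 to 1.38 in combination and 4.42 to 5.28 in butyrate libraries. The ratio of Pdx1 to Isl1 was 2.43 to 2.69 in control, 1.41 to 1.53 in IL-1β, 1.78 to 2.03 in combination and 3.55 to 4.04 in butyrate libraries. For Nkx6-1 to Isl1 it was 4.54 to 5.03, 2.73 to 2.96, 3.17 to 3.48 and 6.62 to 6.96 in the same order. Pdx1/Isl1 and Nkx6-1/Isl1 separated all 4 conditions, with the combination between IL-1β and control, whereas Mafa/Isl1 was lowest in the combination, where it overlapped with IL-1β. For Nkx6-1 the place of the combination came from Isl1. Between combination and IL-1β islets the log2 difference was -0.0019 for Nkx6-1 (FDR 0.99) and -0.23 for Isl1 (FDR 0.0012). With butyrate alone Nkx6-1 was not called either (0.10, FDR 0.22), while Isl1 fell (-0.38). For Pdx1 the log2 difference between combination and IL-1β islets was 0.16 (FDR 0.0149). It was not past the threshold, so only the Isl1 part of that ratio was called there. With butyrate alone Mafa was at -0.03 (FDR 0.92), so its higher ratio to Isl1 came from Isl1.

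**Figure D3:**
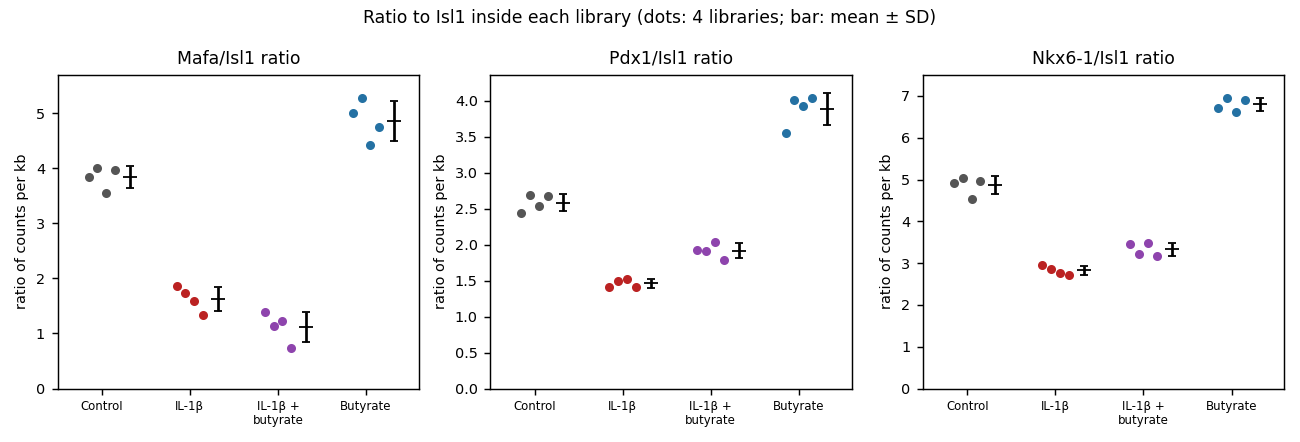
Ratio of Mafa, Pdx1 and Nkx6-1 to Isl1 inside each library (vertical axes, counts per kb over counts per kb, starting at 0); dots are the 4 libraries of a condition and the bar is the mean ± SD. Butyrate libraries are highest in all panels, and the combination is above IL-1β for Pdx1 and Nkx6-1 and reaches lowest for Mafa (0.743). For Nkx6-1 the difference between combination and IL-1β comes from Isl1, the lower part of the ratio. For Pdx1 only the Isl1 part of that difference was called. The higher Mafa ratio with butyrate alone also comes from Isl1.

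Across the 16 libraries the members formed opposed sets. Pdx1 and Nkx6-1 ran together (Pearson's r 0.931), as did Neurod1 and Isl1 (0.906), and Pdx1 ran against Rfx6 (-0.983). These values describe 16 points that share conditions and scaling and are mostly set by the 4 condition means. When each library was expressed as its deviation from the mean of its condition, another arrangement appeared. All 36 pairs among the other 9 members then had a positive r, from 0.25 to 0.897, while all 9 pairs with Rfx6 were negative, from -0.809 (with Mafa) to -0.311. A library with more Mafa than its condition's mean thus tended to hold more of the other 8 members and less Rfx6. The deviations come from the same libraries and are no test. They were shared between libraries with the same replicate number: replicate 1 was the highest library in all 4 conditions for Mafa, Nkx6-1, Isl1 and Foxa2, and replicate 4 was the highest in all 4 for Rfx6.

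**Figure D4:**
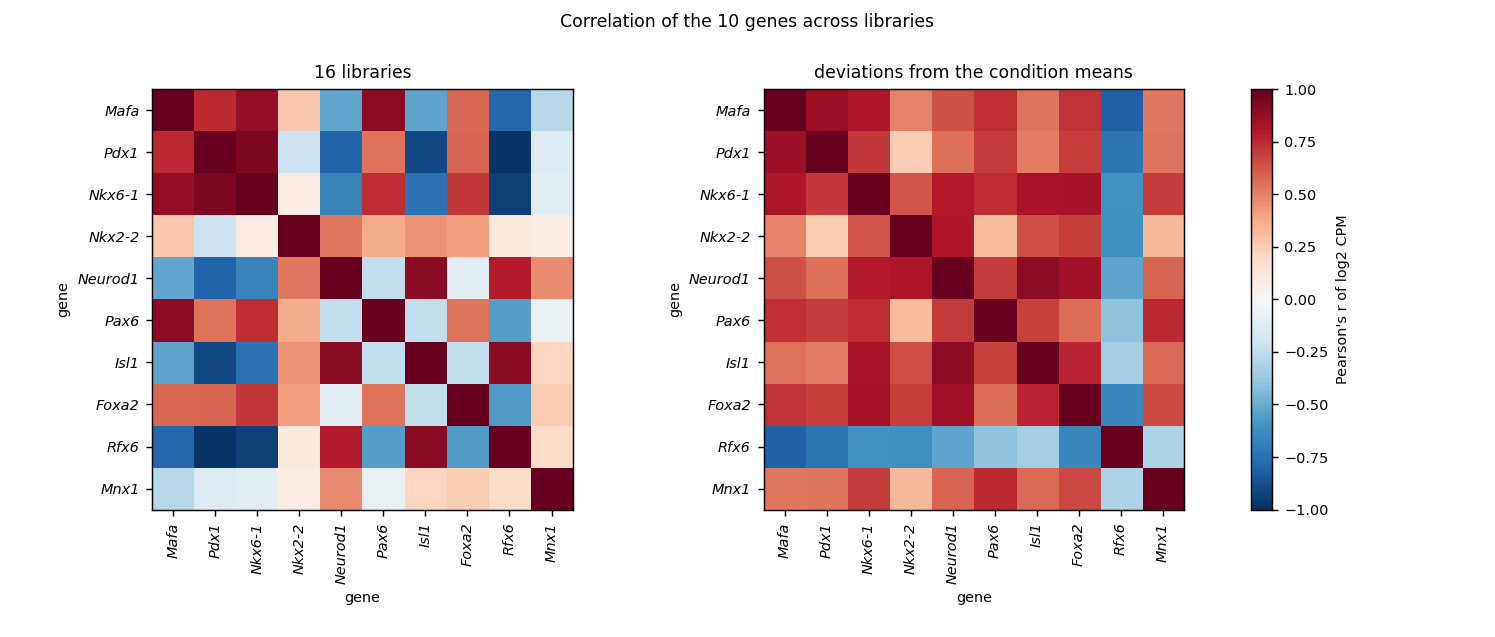
Pearson's r of log2 CPM between the 10 genes (both axes), over 16 libraries on the left and over deviations from the 4 condition means on the right; red is positive and blue negative. On the right the Rfx6 row is negative throughout (-0.809 to -0.311) and the other pairs are positive (0.25 to 0.897).

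Other genes with patterns like the members were sought among 9706 genes with a mean log2 CPM of at least 3, by Pearson's r over the 16 libraries. Most like Mafa were Prss53 (0.976), Ctnnbip1 (0.968) and Tmem215 (0.965). Most like Pdx1 was Papss2 (0.983) and most like Nkx6-1 was Syndig1l (0.967), followed by Gad1 (0.961), the enzyme that makes GABA. Isl1 was matched by Crybg1 (0.986), Uba7 (0.982), the activating enzyme of the ubiquitin-like protein ISG15, and Tapbp (0.981), which loads peptides onto MHC class I. Slc40a1 (0.973), the iron exporter, was most like Neurod1, and Mat1a (0.980) most like Rfx6. The members that moved little had weaker matches: the first was Zfp110 (0.844) for Mnx1 and H2afy (0.903) for Nkx2-2.

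Beyond the members, IL-1β lowered many of the genes that these factors are known to activate in beta cells. Of 23 such genes, 14 fell and 4 rose with IL-1β, with a median log2 change of -0.27 beside -0.03 for all genes, where 6.59% of the genes tested fell and 11.2% rose. Ucn3, a peptide of mature beta cells that acts on delta cells, fell from 313 ± 11.8 to 139.7 ± 6.46 CPM (log2 change -1.16, FDR 8.7e-16). Prlr, the prolactin receptor, fell from 256 ± 33.2 to 147 ± 14.5 CPM (-0.81, FDR 1.6e-05). Pcsk1, the prohormone convertase that cuts proinsulin, rose from 843 ± 59.6 to 1384 ± 57.6 CPM (0.72, FDR 8.6e-10), and Iapp, which is stored with insulin, rose by 0.30 (FDR 0.0019, lost in 2 of 23 alternatives with FDRs up to 0.0125). Ins2 itself fell by 0.72 on the log2 scale with IL-1β (SE 0.08, FDR 2.3e-07), and for Gcg and Sst, the alpha and delta cell hormones, the log2 changes were -0.02 (FDR 0.89) and 0.07 (FDR 0.57).

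With butyrate added to IL-1β, 5 of these 23 target genes fell and 3 rose, where 11.1% of the genes tested fell and 8.41% rose (median -0.11, beside 0.01 for all genes). Sytl4, which docks insulin granules, fell from 255 ± 41.8 to 161 ± 20.7 CPM (-0.66, FDR 0.0013), Abcc8, the sulfonylurea receptor, rose by 0.23 (FDR 0.0015, lost in 2 of 23 alternatives with FDRs up to 0.0112), and Ins2 was at 0.0065 (FDR 0.96). Butyrate alone gave 6 rises and 4 falls, where 8.53% of the genes tested rose and 11.4% fell (median 0.03, beside 0.0065 for all genes). Among them Ero1lb, which forms disulfide bonds in the endoplasmic reticulum, rose from 1932 ± 50.5 to 2601 ± 118 CPM (0.43, FDR 0.0023, lost in 1 of 23 alternatives at 0.0239) and Pcsk1 fell by 0.33 (log2 change -0.33, FDR 2.0e-04), opposite to its change with IL-1β. The combination against control gave 13 falls and 4 rises, where 14.8% of the genes tested fell and 15.8% rose (median -0.38, beside -0.0027 for all genes), with Ucn3 at -1.29 (FDR 7.1e-17) and Sytl4 at -1.20 (FDR 3.6e-06).

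Of 38 other islet transcription factors, 34 were tested. IL-1β raised 6 and lowered 1, where it called 17.8% of the genes tested, so the share was close to the background (median 0.04, beside -0.03 for all genes). Neurog3, the switch of endocrine progenitors, rose from 5.67 ± 0.356 to 9.19 ± 0.258 CPM (0.70, FDR 7.8e-07), and Esrrg, a nuclear receptor of mature beta cells, rose from 14.1 ± 1.86 to 20.8 ± 0.874 CPM (0.56, FDR 5.2e-06). Butyrate alone raised 3 and lowered 6, where it called 19.9% of the genes tested (median -0.02, beside 0.0065). Foxo1, a forkhead factor under insulin signalling, rose from 80.7 ± 5.14 to 108 ± 5.90 CPM (0.43, FDR 2.6e-07), and Hnf4a fell from 42.7 ± 3.91 to 29.8 ± 2.67 CPM (-0.52, FDR 1.2e-06). Added to IL-1β, butyrate raised 1, Foxo1 (0.28, FDR 1.3e-04), and lowered 5, where 19.5% of the genes tested were called, with Irx1, an alpha cell factor, at -0.54 (FDR 3.2e-05) and Hnf4a at -0.41 (FDR 2.5e-05).

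Among 17 binding partners and coregulators of the members, 3 rose with IL-1β and none fell, which is near the 17.8% of the genes tested that were called (median -6.5e-04, beside -0.03 for all genes). Setd7, a histone methyltransferase that works with Pdx1, rose from 117 ± 4.71 to 147 ± 8.62 CPM (0.33, FDR 5.3e-06), and Hmga1, a chromatin protein, by 0.27 (FDR 0.0037, lost in 3 of 23 alternatives with FDRs up to 0.0197). Butyrate alone raised 3 and lowered 3 of them, beside 19.9% of the genes tested (median 0.0070, beside 0.0065). Added to IL-1β it raised 3 and lowered none, beside 19.5% (median -0.01, beside 0.01). Chd4, the helicase of a deacetylase complex that Pdx1 recruits, rose from 338 ± 13.6 to 421 ± 20.9 CPM with butyrate alone (0.31, FDR 8.0e-06) and by 0.32 when butyrate was added to IL-1β (FDR 5.5e-06). Ep300 and Crebbp, which are histone acetyltransferases, fell by 0.27 (log2 change -0.27, FDR 0.0020) and 0.22 (log2 change -0.22, FDR 0.0069) with butyrate alone. Of 23 alternatives, 3 lost the call of Ep300 (FDR up to 0.0118) and 7 that of Crebbp (FDR up to 0.0405).

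RNA of marker genes of some cell types also differed between the conditions. Of all genes tested, IL-1β called 17.8% (11.2% higher and 6.59% lower). Butyrate added to IL-1β called 19.5% (8.41% higher and 11.1% lower), and butyrate alone 19.9% (8.53% higher and 11.4% lower). A few calls in a short list cannot be told from these shares. With IL-1β, 5 of 7 beta cell markers, all of which are also among the target genes above, fell and 1 rose, and their summed level went from between 214200 and 236900 CPM in control to between 137600 and 179200 CPM. Of 8 macrophage markers, 7 were tested, of which 6 rose and 1, C1qa, fell (111 ± 11.1 to 79.7 ± 11.8 CPM), and their sum went from between 125 and 139 to between 164 and 196 CPM. Of 6 duct markers, 5 were tested and 3 rose, with the sum going from between 341 and 368 to between 502 and 600.3 CPM. Much of that rise was in Spp1, which went from 11.9 ± 2.72 to 158 ± 45.8 CPM. Of 8 alpha cell markers, some of which are also among the other islet factors, 1 rose and 2 fell, with overlapping sums, of 6 delta and 3 PP cell markers none was called, and 1 of the 4 tested of 6 endothelial, 1 of 8 mesenchymal and 1 of 4 acinar markers were called. With butyrate added to IL-1β, the delta sum went from between 1759 and 2233 to between 2636 and 3203 CPM, led by Sst (log2 change 0.61, FDR 1.0e-05), and the macrophage sum went to between 90.2 and 118 CPM with 4 of 7 falling. Of the 8 alpha cell markers 5 fell and 1 rose, but the summed level, which is mostly Gcg, went from between 20650 and 26170 to between 25100 and 28100 CPM. The riser was Gcg (log2 change 0.25, FDR 0.0087), whose call was lost in 12 of 23 alternatives with FDRs up to 0.0482. With butyrate alone, 5 of 8 alpha cell markers fell and 2 of 6 delta cell markers rose, and 2 of 7 beta cell markers rose and 1 fell. None of the markers was at 0 in all libraries, and the part of these shifts in the changes of the 10 factors was not tested.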

How the data were processed

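Islet RNA was sequenced in 16 libraries of 4 conditions. The authors mapped the reads to GRCm38 (mm10) with STAR 2.5.3a and deposited raw counts per Ensembl gene. The counting program, the annotation release and the strand setting are not given in the sources used here, and the library kit does not mark strand. Symbols, exon lengths and gene positions came from GENCODE M21. Genes were filtered by edgeR's filterByExpr, scaled by TMM and tested with edgeR 4.0.16 (robust quasi-likelihood test, R 4.3.3) in 1 fit over 4 conditions, with Benjamini-Hochberg adjustment over 18587 genes and a threshold of 0.01. Alternatives were DESeq2 1.42.0, 3 other scalings, no filter, fits of 2 conditions, a replicate block, a threshold of 0.05 and each library left out. The members and gene lists were chosen with earlier results of these data known. Named were all members, Ins2, Gcg and Sst, genes most like each member, and from each list up to 2 of the largest called changes in each direction, except for a few genes that are not reported here. Counts summed to between 18635943 and 25955943 per library. The p-values measure the spread between libraries of the same condition. The fit had no term for the replicate number, so any offset shared by same-numbered libraries stayed in that spread.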

Additional observations from a re-analysis of the deposited data

Results flagged for a closer look

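Isl1 in IL-1β replicate 1 stood apart from the other libraries of its condition. It was at 206.6 CPM, while the other 3 IL-1β libraries lay between 192.5 and 193.5 CPM, so that the gap made up 0.929 of the range of the condition, above Dixon's 95% critical value for 4 libraries. The rise of Isl1 with IL-1β held without this library. In all, 40 sets of 4 libraries (10 genes in 4 conditions) were examined, and chance alone sets apart about 1 in 20.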

How the results depend on the processing

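No member reversed a call under any alternative. Of 1430 values over 60 pairs of member and comparison, 1347 kept their direction and their side of the threshold, 33 lost a call, 24 gained one, and 26 that were uncalled in both fits changed sign. The number of members called changed most when butyrate was added to IL-1β. There it was 2, and it became 1 when only the conditions compared were fitted (Mafa lost), 4 at an adjusted p under 0.05 (Neurod1 and Pdx1 gained) and 1 to 3 when 1 library was left out. With butyrate alone it was 3, and 1 to 3 with 1 library left out. A replicate block gave 5 calls for butyrate added to IL-1β (Neurod1, Nkx2-2 and Pdx1 gained, with FDRs of 3.6e-04, 0.0042 and 0.0016, where 4983 of all genes were called and not 3629) and at most 1 more call in each other comparison; for the difference of the butyrate effects it gave 2 members at an unadjusted p under 0.05, Isl1 and Mafa, and 0 calls. Replicate numbers were not treated as pairing the libraries. The labels do not say that a number marks 1 shared experiment, and the correlation of same-numbered libraries was not always above 0.1. It ran from 0.0535 to 0.397 over 24 pairs, while that of differently numbered libraries ran from -0.293 to 0.17. Of the 16 libraries, 14 correlated best with their own number. A limit of 0.1 therefore cannot decide whether the numbers mark shared experiments, and the block fit is given as an alternative. Other scalings moved the median of all genes by less than 0.1 on the log2 scale. Over all genes, the difference of the butyrate effects was called for 18 genes, and for 95 with no filter, 52 with DESeq2, 132 with the replicate block and 11 to 23 with 1 library left out.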
